A study of Homo sapiens with 8 samples.

Results

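The response of Panc1 cells to 1% oxygen was described across all measured genes, with weight on functions outside the well known hypoxia targets and on genes whose RNA fell. Panc1 is an established human pancreatic ductal adenocarcinoma line. The comparison set control siRNA (siCtrl) cells at 1% oxygen (hypoxia, 3 libraries, numbered 2, 5 and 8 in their titles) against siCtrl cells at 21% oxygen (normoxia, 2 libraries, numbered 1 and 4). All 5 libraries therefore carry the same siRNA treatment, and no untransfected cells were analysed here. They are 5 of the 8 libraries analysed. The other 3 were from cells given an siRNA against SF3B1 (siSF3B1) and kept at 1% oxygen. They entered the estimate of the spread, the filter on mean level and the fits that leave out 1 library, but not the siCtrl group means. Of 15176 genes listed, the 13112 with a mean level above 0 log2 CPM over all 8 libraries, that is above 1 CPM (reads of a gene scaled to library size), were tested. The labels give 8 hours at low oxygen for siSF3B1 cells, and their wording leaves it unclear whether that time holds for siCtrl cells. Separate cultures are not stated for the libraries of a group. The tests therefore set the difference against the variation among these libraries, and that variation may be technical. A single line bears the whole comparison.

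Cells sense oxygen largely through the hypoxia-inducible factors (HIF). With oxygen, prolyl hydroxylases mark the HIF alpha subunits for destruction through the VHL ubiquitin ligase. When oxygen is short the subunits persist, pair with ARNT and bind DNA at a short core sequence, switching on genes for glucose uptake, glycolysis, blood vessel growth and pH control. Ductal pancreatic tumours are poorly supplied with blood and are known for low oxygen.

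The libraries held from 20496492 to 25257173 reads over the listed genes. Ductal epithelial markers were present: KRT8 stood between 11.3 and 11.8 log2 CPM in all 5 siCtrl libraries, and SOX9 between 7.21 and 7.78. The summed level of the 14 listed markers of this kind was 5559 and 6525 CPM in normoxia and from 5148 to 6549 CPM in hypoxia. KRT17 stood below 0 log2 CPM in every library. Of 22 markers of leukocytes, endothelium, fibroblasts, acinar, islet, liver and red cells, 4 were listed in the table, and their sum was 109 and 152.8 CPM in normoxia and 124.9 to 169.2 CPM in hypoxia. Nearly all of that sum was CD68, which cells other than macrophages also express. In bulk RNA, fewer cells of a kind and less RNA per cell cannot be told apart.

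A total of 570 genes rose and 171 fell at 1% oxygen, with limma and a Benjamini-Hochberg adjusted p under 0.05. These are 4.35% and 1.3% of the tested genes, or 5.65% in either direction. With plain read totals in place of the authors' scaling the counts were 505 and 275. The share of higher among called genes then went from 76.9 to 64.7%. The rises were also larger. Among genes that rose the median log2 fold change was 0.72, 146 changed by 1 to 2 and 51 by 2 or more on the log2 scale, so that 197 genes (1.5% of those tested) rose by at least 1. Among genes that fell the median size was 0.50, 15 (0.114%) changed by 1 or more and none by 2. The median over all tested genes was -0.02. Without adjustment, 2578 genes (19.7%) had a p under 0.05. The plot of fold change against level shows the asymmetry of these 570 and 171 calls.

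**Figure D1:**
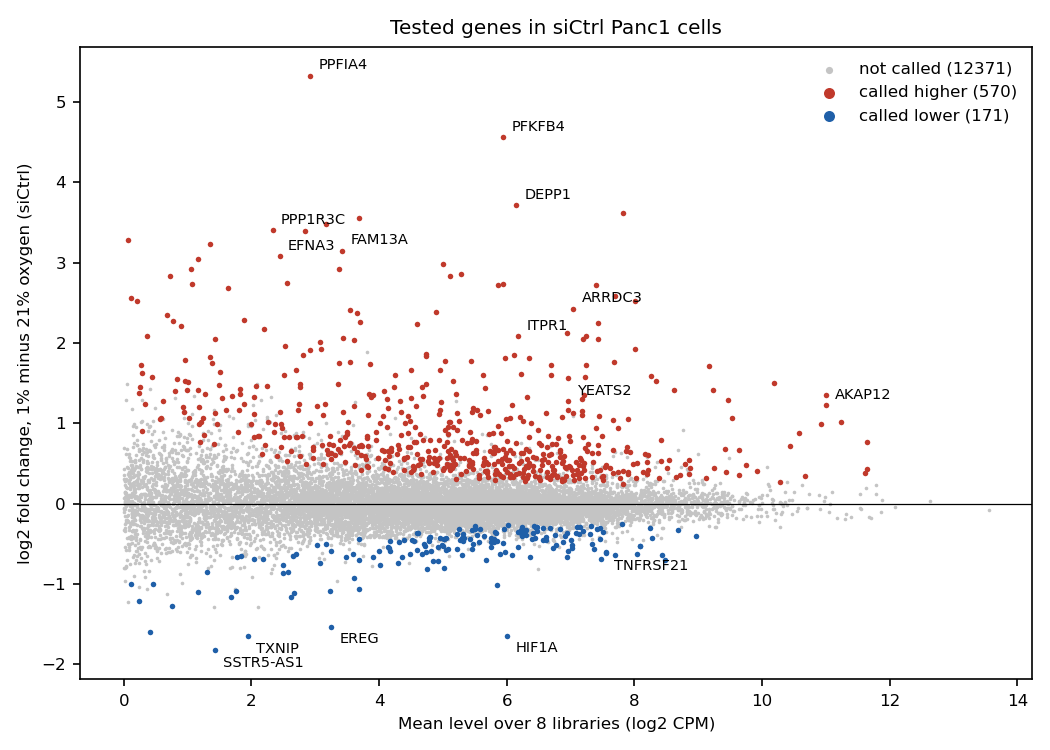
Each point is 1 of the 13112 tested genes, placed by its mean level over 8 libraries (log2 CPM) and its log2 fold change between siCtrl cells at 1% and 21% oxygen. Red points are the 570 genes called higher and blue points the 171 called lower with limma. Named red points reach 5.33 for PPFIA4 and the lowest blue point is SSTR5-AS1 at -1.83.

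Calls depended on which libraries were in the fit. When each of the 8 libraries was left out in turn, 213 of the 570 genes that rose (1.62% of tested genes) and 14 of the 171 that fell (0.107%) kept the call every time. These are called stable below. The calls for lower genes ranged from 21 without normoxia library 1 to 221 without siSF3B1 library 6, and those for higher genes from 257 to 660 without the same libraries. The counts of higher and lower genes were 276 and 30 without normoxia library 4, 358 and 60 without hypoxia library 2, and 360 and 51 without hypoxia library 8. With a block for the sets of title numbers, 1048 genes rose (7.99%) and 597 fell (4.55%), among them all 570 and 170 of the 171. The share of higher among called genes was then 63.7%. It was 50.8% with the block on the 5 siCtrl libraries alone, so the asymmetry depends on the fit. In 20% of tested genes every hypoxia library stood above both normoxia libraries and in 22.7% below, so a lack of overlap is common here and called genes are described with their test. It held for all 570 genes called higher and all 171 called lower, so it adds nothing to a call.

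The textbook targets serve as a reference. Of 42 canonical HIF targets 41 were tested and 39 rose (36 of them stable), and of 24 genes of glycolysis and lactate export 23 were tested and 21 rose (19 stable). Median log2 fold changes were 1.86 and 1.29. PPFIA4, a liprin scaffold protein, changed most, by 40.1-fold. The 4 tested members that were not called are the dioxygenases JMJD6 (log2 fold change 0.12, adjusted p = 0.524) and KDM5B (0.14, adjusted p = 0.31), the muscle phosphofructokinase subunit PFKM (-0.16, adjusted p = 0.527) and the bifunctional enzyme PFKFB2 (-0.06, adjusted p = 0.843), all with limma. The 5 members that rose and were not stable are the enolase ENO1, which lost the call without normoxia library 1 or 4 or hypoxia library 2 or 8 (adjusted p up to 0.18), pyruvate kinase PKM, without normoxia library 1 or 4 (adjusted p = 0.0815 and 0.0509), lysyl oxidase LOX, without normoxia library 1 or hypoxia library 2 or 8 (adjusted p up to 0.177), the GTPase RAB20, without normoxia library 1 (adjusted p = 0.0707), and the chemokine receptor CXCR4, without normoxia library 4 (adjusted p = 0.0517). Together these lists hold 60 of the 570 higher genes. With 41 and 23 tested members they could not hold most of the 570, so this count does not weigh them against other genes.

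Promoters of strongly changed genes outside these lists are shown here because HIF binds the core sequence ACGTG or GCGTG. Each window is 300 bases long, from 250 before to 50 after a RefSeq start (GRCh38.p14), printed 5′ to 3′ on the gene's strand, with capitals at every match to ACGTG or GCGTG on either strand (CACGT and CACGC when read on the printed strand). PPP1R3C, which had 4 matches, lies at chr10:91633022-91633321 on the minus strand. The FAM13A window (2 matches, both within CACGTG, which reads as ACGTG on both strands) lies at chr4:89057136-89057435 on the minus strand and is 1 of 2 listed for that gene. EFNA3 had 3 matches at chr1:155078587-155078886, plus strand. DEPP1, the gene with the largest rise outside the lists, had none at chr10:44978760-44979059, minus strand. Of genes that fell, EREG had 2 at chr4:74364895-74365194 and HIF1A had 1 at chr14:61695263-61695562, 1 of 2 windows listed for HIF1A, both on the plus strand.
PPP1R3C: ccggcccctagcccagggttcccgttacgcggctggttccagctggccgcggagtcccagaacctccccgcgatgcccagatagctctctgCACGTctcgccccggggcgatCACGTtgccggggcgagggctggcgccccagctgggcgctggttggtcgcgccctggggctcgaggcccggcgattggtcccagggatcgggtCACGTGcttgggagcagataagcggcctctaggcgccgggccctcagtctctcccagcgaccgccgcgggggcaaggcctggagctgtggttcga
FAM13A: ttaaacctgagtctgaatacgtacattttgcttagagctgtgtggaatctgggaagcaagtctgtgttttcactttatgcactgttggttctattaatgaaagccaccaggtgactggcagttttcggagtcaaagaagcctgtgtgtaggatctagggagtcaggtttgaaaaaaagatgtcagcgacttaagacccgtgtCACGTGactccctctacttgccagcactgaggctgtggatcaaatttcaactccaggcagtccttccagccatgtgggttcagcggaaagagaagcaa
EFNA3: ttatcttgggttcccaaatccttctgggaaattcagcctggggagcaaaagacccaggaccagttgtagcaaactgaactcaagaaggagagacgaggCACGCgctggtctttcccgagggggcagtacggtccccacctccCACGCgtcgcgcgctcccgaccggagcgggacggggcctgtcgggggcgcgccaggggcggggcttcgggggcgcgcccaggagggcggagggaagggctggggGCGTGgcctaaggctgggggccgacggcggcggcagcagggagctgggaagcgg
DEPP1: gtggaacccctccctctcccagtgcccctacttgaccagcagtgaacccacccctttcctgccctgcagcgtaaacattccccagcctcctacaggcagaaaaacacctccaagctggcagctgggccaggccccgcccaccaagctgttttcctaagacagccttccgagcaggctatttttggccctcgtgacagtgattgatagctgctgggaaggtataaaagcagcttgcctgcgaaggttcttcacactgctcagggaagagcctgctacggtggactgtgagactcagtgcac
EREG: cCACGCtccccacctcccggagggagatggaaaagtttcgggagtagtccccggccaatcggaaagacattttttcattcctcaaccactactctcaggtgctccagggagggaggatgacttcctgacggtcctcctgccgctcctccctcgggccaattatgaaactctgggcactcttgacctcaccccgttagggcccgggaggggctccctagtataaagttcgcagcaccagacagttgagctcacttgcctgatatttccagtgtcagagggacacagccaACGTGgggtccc
HIF1A: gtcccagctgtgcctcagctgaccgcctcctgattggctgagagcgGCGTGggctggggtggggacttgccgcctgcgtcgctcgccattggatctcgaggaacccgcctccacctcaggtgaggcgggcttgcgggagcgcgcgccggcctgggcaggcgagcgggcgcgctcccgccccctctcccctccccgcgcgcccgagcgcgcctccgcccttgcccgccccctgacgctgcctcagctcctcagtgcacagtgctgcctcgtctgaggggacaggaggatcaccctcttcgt

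Across genes, 1 window per gene was read, at the outermost RefSeq start where there was one. Of 12039 tested protein-coding genes 9942 had a window. ACGTG occurred on either strand in 21.57% of all 27305 RefSeq windows, in 26.38% of windows of protein-coding genes that were not called, in 37.95% of those that rose (440 windows) and in 33.09% of those that fell (136 windows). Among stable higher genes it was 44.64% of 168 windows. Of the 14 stable lower genes 11 had a window (78.57%), too few for a check of that set, and 3 of the 11 (27.27%) held ACGTG. With GCGTG included the shares were 48.39, 64.07, 70.45 and 65.44% in the same order. The median GC content was 65.33% for genes not called, 69.67% for those that rose and 65.33% for those that fell. These are descriptions with no test, and the part of base composition in them was not tested. A match in a window is not a binding site.

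Outside the canonical lists, the strongest rises fell on genes of varied function. DEPP1, a regulator of autophagy and oxidative stress known as a FOXO target, stood at 3.58 and 3.66 log2 CPM in normoxia and at 7.32, 7.23 and 7.48 in hypoxia. That is 13.2-fold higher (log2 fold change 3.72 ± 0.087 SE, limma adjusted p = 7.55e-09), with both groups far apart. Its exons overlap RASSF4 on the other strand over 23.3% of their length, so the value is uncertain as far as reads were counted without strand. FAM13A, which carries a RhoGAP domain and is linked to lung disease and fat tissue, went from 1.27 and 1.02 to 4.34, 4.22 and 4.33 log2 CPM (8.88-fold, limma adjusted p = 3.38e-07). The 3 hypoxia libraries differed by little. ITPR1, the calcium channel of the endoplasmic reticulum that opens with inositol trisphosphate, stood at 4.93 and 5.05 in normoxia and at 7.21, 6.89 and 7.13 log2 CPM in hypoxia (4.25-fold, limma adjusted p = 5.26e-06). SPAG4, a SUN-domain protein of the nuclear envelope, rose 5.31-fold, from 1.92 and 2.13 to 4.42, 4.26 and 4.61 log2 CPM (limma adjusted p = 7.18e-06).

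Several abundant genes in none of the lists also rose, with small errors. AKAP12, a scaffold that anchors protein kinase A at the membrane, was the most abundant, at 10.15 and 10.33 log2 CPM in normoxia and 11.45, 11.41 and 11.55 in hypoxia (2.35-fold, SE of the log2 fold change 0.087, limma adjusted p = 2.16e-05). YEATS2, a reader of acylated histones in the ATAC acetyltransferase complex, stood at 6.06 and 6.17 against 7.39, 7.31 and 7.46 log2 CPM (2.42-fold, limma adjusted p = 4.37e-06). Neither gene's groups overlapped, which held for every called gene. SYDE1, a RhoGAP protein, rose 2.46-fold. GALNT18, of the family that starts mucin-type O-glycans, rose 2.27-fold. ZC3HAV1L, a paralogue of the zinc finger antiviral protein, rose 2.25-fold, and TMEM189, which makes the vinyl ether bond of plasmalogens, 2.12-fold. PGAM4 rose 1.80-fold. It is a retrocopy of PGAM1, which rose 1.83-fold, so reads of either may have been assigned to the other and the value is uncertain. All of these genes were stable.

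**Figure D2:**
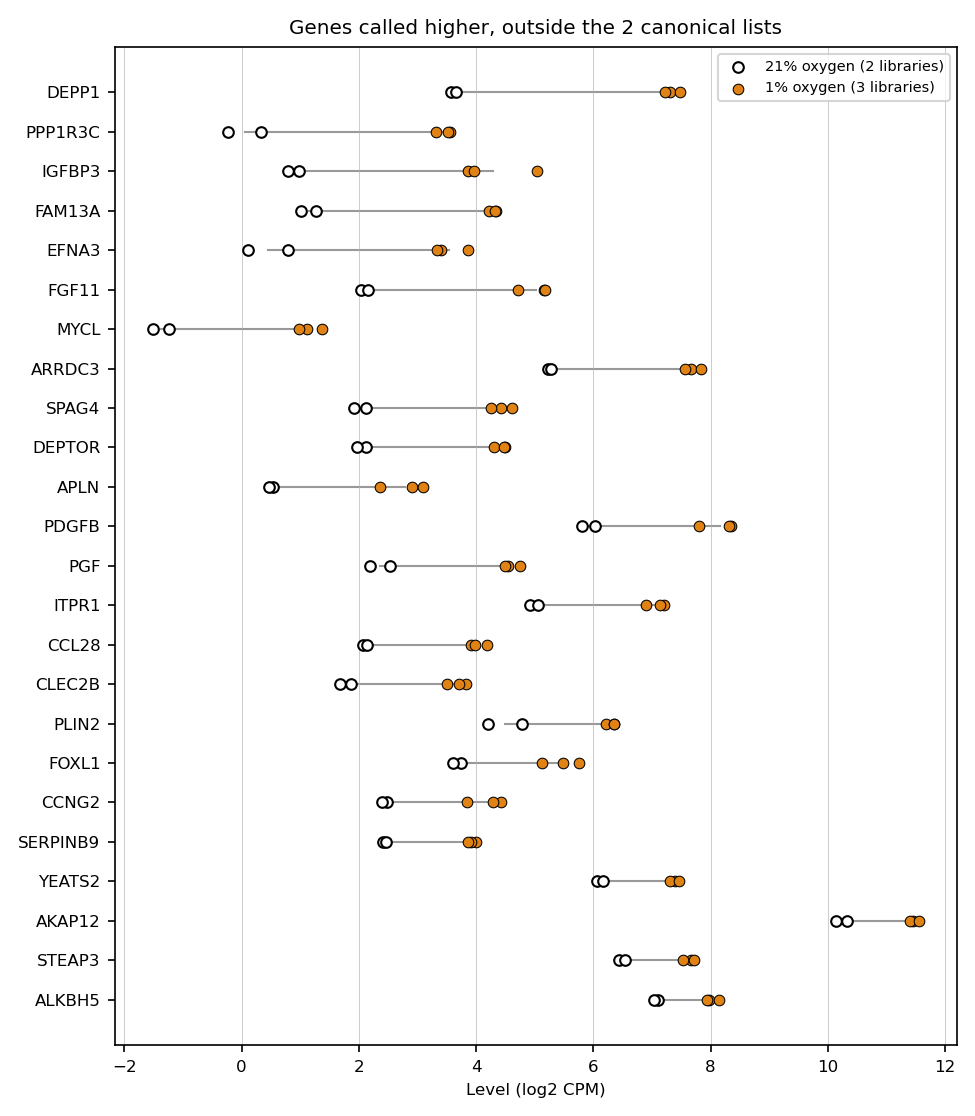
Levels (log2 CPM) of 24 genes called higher outside the lists of canonical HIF targets and glycolysis, 1 point per library, with open circles for 21% oxygen and filled circles for 1% oxygen; the grey line joins the group means. In every gene shown, as in all 570 called higher, all 3 hypoxia libraries lie above both normoxia libraries. Genes run from DEPP1 at the top (log2 fold change 3.72) to ALKBH5 (0.94).

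Genes for secreted signals moved both ways. Of 61 growth factors and hormone-like factors 44 were tested. Among them 7 rose and 5 fell, of which 5 and 1 were stable. That is 27.3% called, against 5.65% of all tested genes. Under the block 10 rose and 8 fell, where 7.99% of all tested genes rose and 4.55% fell. IGFBP3, which binds insulin-like growth factors in the extracellular space, stood at 0.80 and 0.99 log2 CPM in normoxia and at 3.86, 3.97 and 5.04 in hypoxia (10.5-fold, limma adjusted p = 9.9e-05). Hypoxia library 8 was the highest, and the groups were well apart. PDGFB, the B chain of platelet-derived growth factor, was the most abundant of the risen ligands in this list. It stood at 6.02 and 5.80 against 8.35, 7.80 and 8.32 log2 CPM (4.74-fold, limma adjusted p = 6.48e-05). PGF, placental growth factor and a ligand of VEGF receptor 1, rose 4.71-fold, and STC1, the glycoprotein hormone stanniocalcin, 4.53-fold. FGF11, a fibroblast growth factor homologue that stays inside the cell, rose 7.56-fold, from 2.04 and 2.15 to 5.16, 4.71 and 5.17 log2 CPM (limma adjusted p = 0.00022). From outside the lists, apelin (APLN), the peptide ligand of the receptor APLNR, rose 4.90-fold with limma adjusted p = 0.00064. It had 32 and 34 reads in normoxia and 171, 184 and 121 in hypoxia. CCL28, a chemokine of mucosal epithelia, went from 2.07 and 2.14 to 3.91, 3.98 and 4.19 log2 CPM (3.79-fold, limma adjusted p = 5.46e-05).

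Among cell surface and adhesion genes the ephrin EFNA3 changed most. EFNA3, a membrane-bound ligand of Eph receptors, had 39 and 26 reads in normoxia and 243, 217 and 347 in hypoxia, which is 8.48-fold more (log2 fold change 3.08 ± 0.29 SE, limma adjusted p = 0.000137). Its neighbour EFNA4 rose 1.80-fold and lost the call without normoxia library 1 or 4 (adjusted p = 0.0655 and 0.0851). In the adhesion, integrin and guidance receptor list 7 of 42 tested members rose and none fell, and 2 of the 7 were stable, EFNA3 and SEMA4B. The share called was 16.7%, against 5.65% of all tested genes, and under the block 10 rose and none fell. SEMA4B, a transmembrane semaphorin, was abundant, at 9.84 and 9.96 against 10.54, 10.64 and 10.68 log2 CPM (1.64-fold, limma adjusted p = 0.000348). The other 35 members, most integrins and cadherins among them, were not called, and the list's median log2 fold change was 0.06. CLEC2B, a C-type lectin that natural killer cells recognise, rose 3.76-fold and SERPINB9, the intracellular inhibitor of granzyme B, 2.82-fold. Both were stable, with SERPINB9 at 2.41 and 2.46 in normoxia and at least 3.87 log2 CPM in all 3 hypoxia libraries.

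Growth factor receptors and the feedback of the MAP kinase pathway held calls in both directions. Of 42 tested receptors 4 rose and 2 fell, and F2RL1 alone was stable. Under the block 10 rose and 4 fell. Without it 14.3% of the receptors were called, against 5.65% of all tested genes. OSMR, a receptor subunit for oncostatin M, rose 1.41-fold and lost the call without normoxia library 1 (adjusted p = 0.0655). F3, tissue factor, rose 1.78-fold and lost it without normoxia library 1 (adjusted p = 0.118). TGFBR1 and LRP1 rose 1.68- and 1.77-fold, and were not called without normoxia library 1 or 4 or hypoxia library 2 (adjusted p up to 0.143) and without normoxia library 1 or 4 or hypoxia library 2 or 8 (adjusted p up to 0.182), respectively. In the MAP kinase feedback list 3 of 24 tested genes rose and 2 fell (20.8% called), and 4 fell under the block. DUSP1, a nuclear phosphatase of MAP kinases, rose 2.15-fold, from 6.22 and 5.89 to 7.25, 7.06 and 7.18 log2 CPM (limma adjusted p = 0.000184), and was stable. ERRFI1, an inhibitor of the EGF receptor, rose 2.09-fold and lost the call without normoxia library 1 or 4 (adjusted p = 0.0601 and 0.0579). The Sprouty inhibitors went the other way: SPRY4 fell by 0.66 and SPRY2 fell by 0.55 on the log2 scale. SPRY4 lost the call without normoxia library 4 (adjusted p = 0.0619) and SPRY2 without normoxia library 1 or 4 (adjusted p = 0.0782 and 0.101).

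Stores of carbohydrate and fat were touched at a few steps. Of 23 tested genes of glycogen metabolism 5 rose and 1 fell, and 4 of the 5 were stable. The share called was 26.1%, against 5.65% of all tested genes. PPP1R3C, which brings protein phosphatase 1 to glycogen, stood at -0.24 and 0.34 log2 CPM in normoxia and at 3.55, 3.31 and 3.52 in hypoxia (10.6-fold, limma adjusted p = 4.44e-06). From 18 and 31 reads it rose to 269, 214 and 272. Enzymes of both synthesis and breakdown rose: the branching enzyme GBE1 1.78-fold, phosphoglucomutase PGM1 2.18-fold and the liver-type phosphorylase PYGL 2.57-fold, with limma adjusted p of 5.4e-05, 7.28e-05 and 0.000879. The list's median log2 fold change was 0.00, and 17 members were not called. In the lipid droplet and acyl transfer list 3 of 33 tested genes rose and none fell (4 and 2 under the block). Here 9.09% were called. PLIN2, a coat protein of lipid droplets, stood at 4.20 and 4.78 against 6.21, 6.35 and 6.34 log2 CPM (3.51-fold, limma adjusted p = 6.48e-05). LPCAT1, which acylates lysophosphatidylcholine, rose 1.63-fold and was stable, while AGPAT5, an acyltransferase of phospholipid synthesis, rose 1.26-fold and lost the call without normoxia library 1 or 4 or hypoxia library 2 (adjusted p up to 0.122).

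A brake of growth signalling and an arrestin-domain gene rose while another arrestin relative fell. Of 39 tested genes of mTORC1 control and nutrient sensing 3 rose and 2 fell, and 2 of the 3 were stable (6 and 4 called under the block). Calls made up 12.8%, against 5.65% of all tested genes. DEPTOR, an inhibitor bound to mTOR, stood at 2.13 and 1.97 log2 CPM in normoxia and at 4.31, 4.50 and 4.48 in hypoxia (5.20-fold, limma adjusted p = 4.39e-06). ARRDC3, an alpha-arrestin that takes receptors to endosomes, went from 5.23 and 5.27 to 7.66, 7.56 and 7.83 log2 CPM (5.39-fold, limma adjusted p = 2.72e-07), although its exons overlap ARRDC3-AS1 over 2.9% of their length. TXNIP, the alpha-arrestin that limits glucose uptake and binds thioredoxin, had 245 and 470 reads in normoxia and 75, 140 and 90 in hypoxia (3.13-fold lower, limma adjusted p = 0.0185). Normoxia library 4 and hypoxia library 5 held the higher value of their groups, which did not overlap, as in all 171 genes called lower. TXNIP lost the call without normoxia library 4 or hypoxia library 2 or 8 (adjusted p up to 0.218). The Rag GTPases, which bring mTORC1 to lysosomes, were split: RRAGA rose 1.40-fold and RRAGC fell by 0.40 on the log2 scale. RRAGA lost the call without normoxia library 1 or 4 (adjusted p = 0.0655 and 0.0525) and RRAGC without normoxia library 1 or 4 or hypoxia library 2 or 8 (adjusted p up to 0.222).

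Transcription factors that rose belonged to several families. Of 40 tested clock, bHLH, Notch and MAX network genes 6 rose and 1 fell, and 3 of the 6 were stable. Under the block 7 rose and 4 fell. BHLHE41, a repressor of the circadian clock, stood at 6.46 and 6.52 in normoxia and at 7.33, 7.31 and 7.31 log2 CPM in hypoxia (1.78-fold, limma adjusted p = 2.35e-05). Its 5 values were tight within each group, though exons overlap SSPN over 4.1% of their length. MYCL, of the MYC family, rose 5.75-fold with limma adjusted p = 0.00113, from 8 and 7 reads to 48, 41 and 60. NFIL3, a bZIP repressor tied to the clock, rose 2.20-fold and was stable. The receptor NOTCH3 rose 4.13-fold but lost the call without normoxia library 4 or hypoxia library 2 or 8 (adjusted p up to 0.145). Among immediate early and Kruppel-like factors 4 of 35 tested rose and none fell, and 12 rose and 3 fell under the block. The AP-1 member FOSL2 rose 1.79-fold and was the stable one, with limma adjusted p = 0.00116. JUN rose 1.67-fold, MYC 1.28-fold and KLF7 1.70-fold. JUN lost the call without normoxia library 1 or 4 or hypoxia library 5 or 8 (adjusted p up to 0.209), MYC without normoxia library 4 or hypoxia library 2 or 5 (adjusted p up to 0.227) and KLF7 without normoxia library 4 or hypoxia library 2 or 8 (adjusted p up to 0.17). In the list of Wnt, Hedgehog and forkhead genes 5 of 45 tested rose and 4 fell (8 and 6 under the block). Shares called in the clock, immediate early and Wnt lists were 17.5, 11.4 and 20.0%, against 5.65% of all tested genes. FOXL1, a forkhead factor of gut mesenchyme, rose 3.43-fold, from 3.75 and 3.60 to 5.48, 5.12 and 5.76 log2 CPM (limma adjusted p = 0.000133), and the ligand WNT9A rose 2.14-fold. Both were stable.

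The oxygen-using dioxygenases form a family of which several prolyl hydroxylases and histone demethylases are HIF targets. In the list of members kept apart from the canonical HIF targets, 5 of 48 tested rose and none fell. Of the 5, 2 were stable (8 and 1 called under the block). Called members made up 10.4% of the list, against 5.65% of all tested genes. Whether the 5 that rose are HIF targets was not tested. ALKBH5, which removes N6-methyladenosine from RNA, stood at 7.10 and 7.04 log2 CPM in normoxia and at 7.98, 7.93 and 8.14 in hypoxia (1.92-fold, limma adjusted p = 0.000184). KDM2B, a demethylase of histone H3 that binds CpG islands, rose 1.55-fold (limma adjusted p = 0.00188). The histone demethylases KDM4C and KDM7A and the lysyl hydroxylase PLOD1 rose by 1.43, 1.79 and 1.57 times. KDM4C lost the call without normoxia library 1 or 4 or hypoxia library 2 or 5 (adjusted p up to 0.167), KDM7A without normoxia library 1 or 4 (adjusted p = 0.112 and 0.121) and PLOD1 without normoxia library 1 or 4 (adjusted p = 0.0699 and 0.0557). The other 43 were not called and the list's median log2 fold change was 0.08.

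Membrane traffic and transport held further rises. Of 66 tested genes of vesicle traffic and the cytoskeleton 8 rose and none fell, and 3 were stable; under the block 10 rose and 3 fell. EHD2, an ATPase at the neck of caveolae, stood at 6.29 and 6.28 against 7.36, 7.20 and 7.53 log2 CPM (2.11-fold, limma adjusted p = 0.00036). SNX33, a sorting nexin that bends membranes, rose 2.05-fold, and RAB40C, a small GTPase of a ubiquitin ligase, 1.82-fold. Exons of SNX33 overlap IMP3 over 10% of their length. CAV1, the main caveolin, rose 1.32-fold and lost the call without normoxia library 1 or 4 (adjusted p = 0.101 and 0.0777). Of 39 tested genes for iron, heme and the NRF2 programme 3 rose and 1 fell (5 and 5 under the block), and STEAP3 was stable. STEAP3, the endosomal ferrireductase that frees iron brought in by transferrin, went from 6.43 and 6.54 to 7.66, 7.53 and 7.72 log2 CPM (2.22-fold, limma adjusted p = 5.18e-05). Its exons overlap STEAP3-AS1. SLC6A6, the taurine transporter, rose 2.13-fold and was the stable member of the 3 of 28 amino acid transport and polyamine genes that rose (5 rose and 2 fell under the block). Shares called were 12.1% for vesicle traffic, 10.3% for iron and 10.7% for amino acid transport, against 5.65% of all tested genes.

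Regulators of cell division and survival contributed single genes. CCNG2, an atypical cyclin linked to cell cycle arrest, stood at 2.48 and 2.39 log2 CPM in normoxia and at 4.43, 3.84 and 4.29 in hypoxia (3.36-fold, limma adjusted p = 0.00127). It was the only call among 29 tested G1 cyclins, kinases and inhibitors, where 3 rose under the block. NOL3, a repressor of apoptosis, rose 2.74-fold and was stable, as 1 of 3 risen among 46 tested genes of p53 and apoptosis. In this list 1 gene fell, and 7 rose and 5 fell under the block. Among ubiquitin ligases and deubiquitinases 4 of 55 tested rose and none fell (7 and 4 under the block), with RNF24 (2.25-fold) and USP28 (1.45-fold) stable. For the G1, p53 and ubiquitin lists the shares called were 3.45, 8.7 and 7.27%, near the 5.65% of all tested genes. SIAH2, a ligase known to act on the HIF prolyl hydroxylases, rose 1.72-fold and lost the call without normoxia library 1 or 4 (adjusted p = 0.0776 and 0.0898).

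Long noncoding RNAs were among the called genes. Of 567 tested long noncoding RNAs 22 rose and 4 fell, which is 4.59% against 5.65% of all tested genes. Under the block 35 rose and 11 fell. DENND5B-AS1 had 47 and 74 reads in normoxia and 218, 200 and 232 in hypoxia (3.88-fold, limma adjusted p = 8.47e-05) and was stable. The imprinted RNA H19 was the most abundant of those named, at 7.67 and 7.77 against 9.30, 8.88 and 9.21 log2 CPM (2.66-fold), and lost the call without normoxia library 1 (adjusted p = 0.0662). LUCAT1 rose 2.57-fold and was not called without normoxia library 1 or 4 or hypoxia library 2, 5 or 8 (adjusted p up to 0.18). At the TSPEAR locus the protein-coding gene (9.40-fold) rose with the antisense genes TSPEAR-AS1 (6.69-fold) and TSPEAR-AS2 (8.25-fold), all stable. Their exons overlap, so the 3 values may share reads. The antisense RNA AFAP1-AS1 fell by 0.63 while AFAP1, which bundles actin, rose 1.73-fold. AFAP1 was stable, AFAP1-AS1 lost the call without normoxia library 1 or 4 or hypoxia library 2, 5 or 8 (adjusted p up to 0.293), and the pair, which overlaps in exons, was chosen after its values were seen. None of 35 snoRNAs and 14 miRNA genes was called with limma. Of these 3 and 2 had an unadjusted p under 0.05, and voom on recovered reads called 1 snoRNA lower and no miRNA gene. Under the block 1 snoRNA fell and 1 miRNA gene rose.

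In the fit without a block, the genes that fell were fewer and the changes smaller. The split between higher and lower was more even with the block. The HIF-1 alpha gene itself, HIF1A, was among the lowest, at 6.91 and 6.89 log2 CPM in normoxia and 5.38, 5.49 and 4.90 in hypoxia, so that the fold change was -1.65 ± 0.17 SE on the log2 scale (3.13-fold lower, limma adjusted p = 0.000222). Hypoxia library 8 held the lowest value. The groups did not overlap, which held for all 171 genes called lower. EREG, the EGF receptor ligand epiregulin, fell by 1.53 on the log2 scale, from 410 and 428 reads to 119, 108 and 178 (limma adjusted p = 0.000431). With HIF1A it is the only stable lower gene that changed by more than 1. F2RL1, a receptor that proteases such as trypsin activate, stood at 7.28 and 7.11 against 6.66, 6.42 and 6.44 log2 CPM (1.61-fold lower, limma adjusted p = 0.00112). TNFRSF21, death receptor 6, went from 7.78 and 7.76 to 7.13, 7.20 and 7.14 log2 CPM (1.53-fold lower, limma adjusted p = 0.000391). Libraries of each oxygen level lay close together for both receptors.

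**Figure D3:**
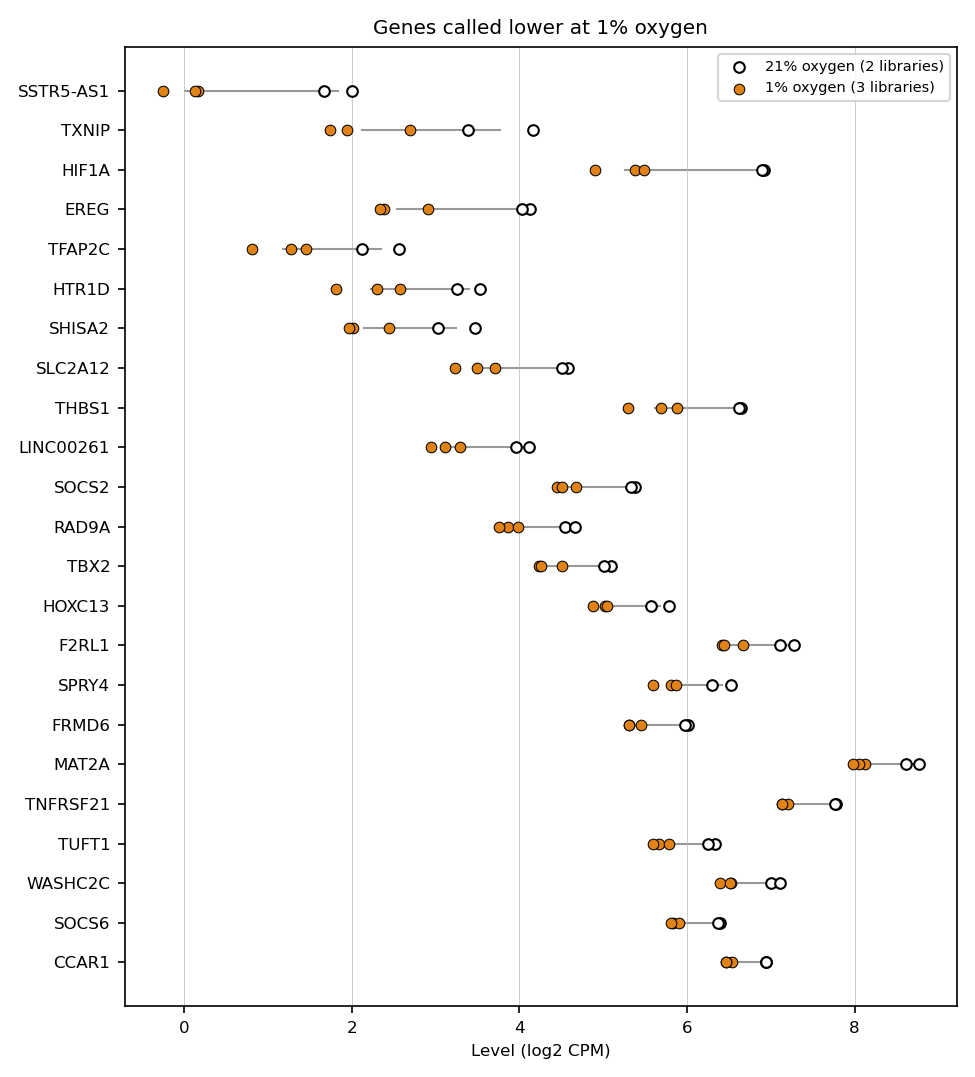
Levels (log2 CPM) of 23 genes called lower at 1% oxygen, 1 point per library, with open circles for 21% oxygen and filled circles for 1% oxygen; the grey line joins the group means. The 14 stable genes and 9 others are sorted by fold change, from SSTR5-AS1 (-1.83) to CCAR1 (-0.45). No gene's groups overlap, which held for all 171 genes called lower.

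Both suppressors of cytokine signalling among the stable lower genes fell modestly. SOCS2 fell by 0.81 and SOCS6 fell by 0.53 on the log2 scale, with limma adjusted p of 0.00107 and 0.000939. For SOCS6 the 2 normoxia values were 6.39 and 6.37 and the 3 hypoxia values 5.83, 5.90 and 5.81 log2 CPM. SOCS2 overlaps an antisense gene over 4.1% of its exons. Regulators of transcription in this set were the homeobox gene HOXC13, which fell by 0.70, the T-box repressor TBX2, which fell by 0.72, and the coactivator CCAR1, which fell by 0.45. HOXC13 overlaps HOXC13-AS. MAT2A, which makes S-adenosylmethionine, the methyl donor of the cell, stood at 8.77 and 8.62 against 8.13, 8.05 and 7.98 log2 CPM (1.56-fold lower, limma adjusted p = 0.00135). It overlaps GGCX over 12.4% of its exons and is uncertain to that extent. RAD9A, of the clamp that signals DNA damage, fell by 0.74 and overlaps PPP1CA. FRMD6, a FERM-domain protein linked to Hippo signalling, fell by 0.64, and TUFT1, tuftelin, fell by 0.61. WASHC2C, a subunit of the WASH complex on endosomes, fell by 0.58. Its near-identical copy WASHC2A fell by 0.56 and was not stable (lost without normoxia library 1 or 4, adjusted p = 0.0563 and 0.184), and reads of the pair may be split.

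Larger falls came from genes that 1 library could remove from the calls. SSTR5-AS1, an antisense RNA, had 93 and 82 reads in normoxia and 24, 22 and 18 in hypoxia (3.54-fold lower, limma adjusted p = 0.00399), with 0.0651 without normoxia library 1. Without that library the call was also lost for the AP-2 factor TFAP2C (adjusted p = 0.165), the serotonin receptor HTR1D (0.125), the FGF and Wnt receptor regulator SHISA2 (0.149) and the noncoding RNA LINC00261 (0.0888). Their log2 fold changes were -1.16, -1.16, -1.11 and -0.92. For each of these 5 genes the groups did not overlap, which held for all 171 genes called lower. THBS1, the matrix glycoprotein thrombospondin 1, stood at 6.65 and 6.62 log2 CPM in normoxia and 5.88, 5.69 and 5.30 in hypoxia, 2.02-fold lower with limma adjusted p = 0.00667. It was not called without normoxia library 1 or 4 (adjusted p = 0.0699 and 0.0573). The glucose transporter SLC2A12 fell by 1.06 and overlaps TBPL1 over 38.9% of its exons. It lost the call without normoxia library 1 or 4 or hypoxia library 8 (adjusted p up to 0.119). In the matrix list as a whole, 2 of 41 tested genes fell (THBS1 and the urokinase gene PLAU) and 2 rose, the lysyl oxidase LOXL2 (1.52-fold, stable) and TGFBI. Under the block 8 rose and 3 fell. Without it 9.76% of the matrix list were called, against 5.65% of all tested genes. PLAU lost the call without normoxia library 1 or 4 or hypoxia library 2 or 8 (adjusted p up to 0.227) and TGFBI without normoxia library 1 or 4 (adjusted p = 0.101 and 0.081).

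The share of called members in each list sets these groups beside the background. Over all 44 lists, 165 of 1789 tested genes rose and 33 fell (270 and 122 under the block). Outside the lists 405 of 11323 rose and 138 fell, 123 and 11 of them stable (778 rose and 475 fell under the block). The 2 canonical lists stand far above every other list. Next in the share called in either direction are growth factors and secreted factors (27.3%) and glycogen metabolism (26.1%). The lists were chosen with results of these data known, so no test of a list is given.

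**Figure D4:**
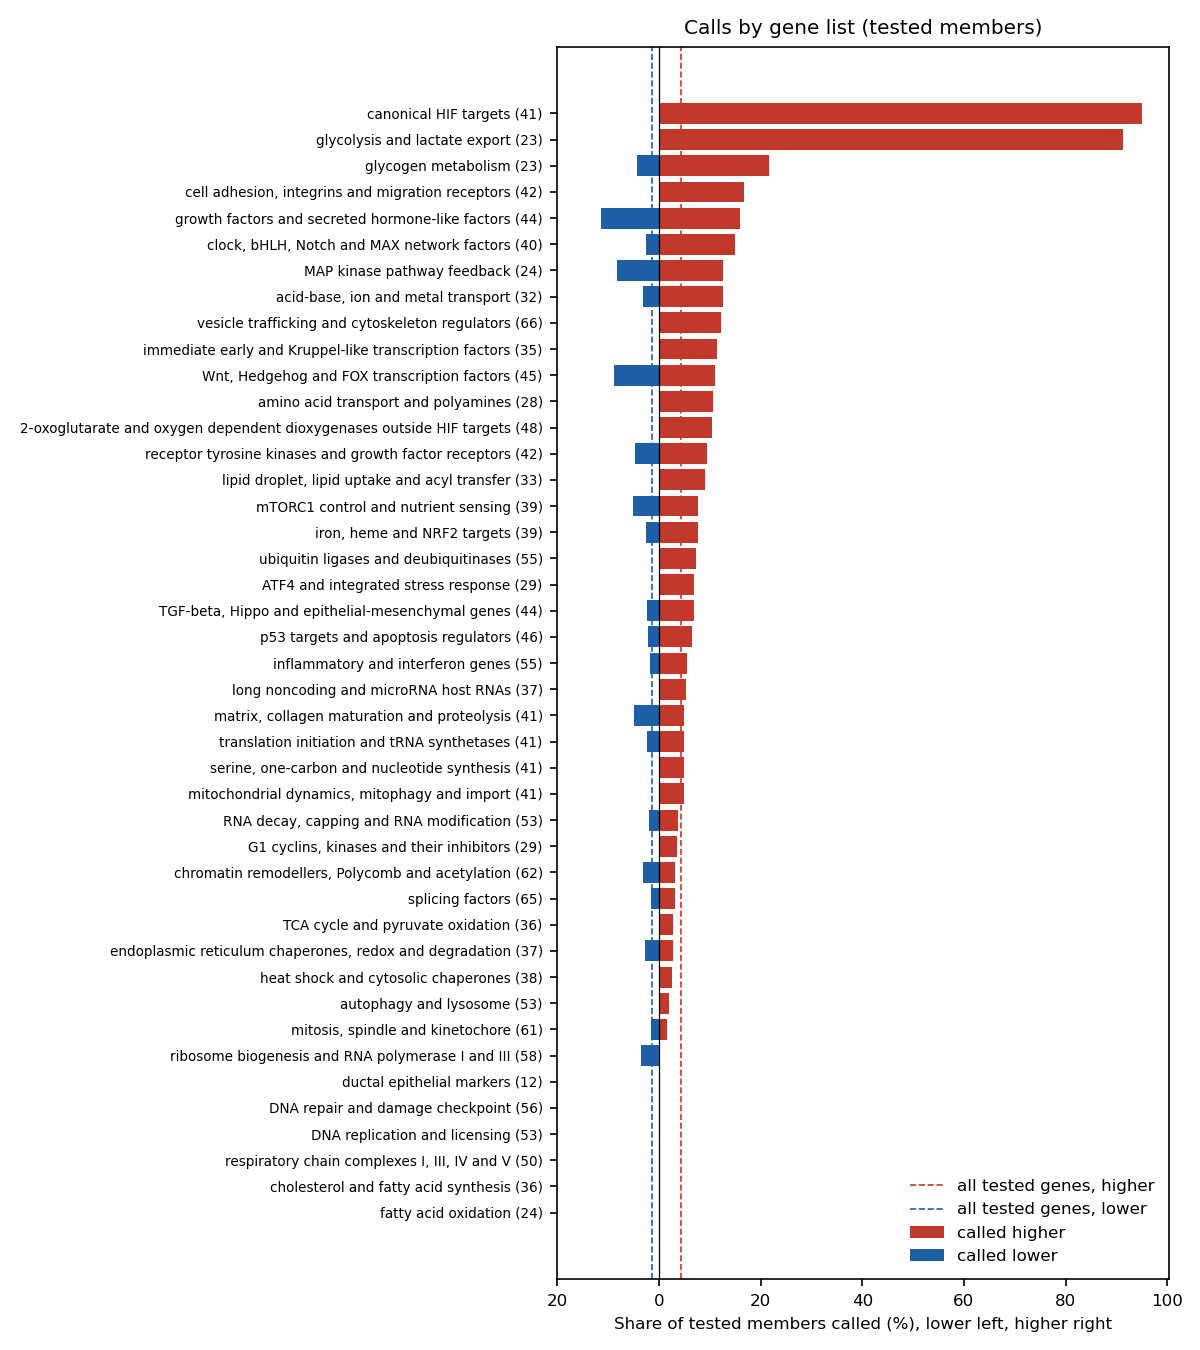
Share of tested members (%) called higher (red, to the right) and lower (blue, to the left) in 43 gene lists with at least 10 tested members, the number tested in parentheses. Dashed lines are the shares over all tested genes, 4.35% higher and 1.3% lower, and only canonical HIF targets and glycolysis pass 90%.

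Many functions that use oxygen or energy had few calls or none. Over all tested genes 5.65% were called, so no call in a list of 24 or 36 genes is not far from that share. None of 50 tested genes of respiratory complexes I, III, IV and V was called, and their log2 fold changes stayed between -0.17 and 0.17. The median was 0.00. Nor was any called among 24 genes of fatty acid oxidation, 36 of cholesterol and fatty acid synthesis, 53 of DNA replication and 56 of DNA repair, all with limma. Under the block 6 cholesterol and fatty acid genes rose, 1 fatty acid oxidation gene fell, and 4 replication and 2 repair genes fell. An unadjusted p under 0.05 was found for 1 respiratory gene, 1 fatty acid oxidation gene, 3 cholesterol and fatty acid genes, 6 replication and 7 repair genes, against 19.7% of all tested genes, and voom on recovered reads called none of these 5 lists' members. FADS2 and SCD, desaturases of fatty acids, had the largest log2 fold changes of their list at 0.62 and 0.57. FADS2 overlaps FADS1 over 4.4% of its exons and is uncertain to that extent. Of 36 genes of the TCA cycle and pyruvate oxidation the mitochondrial isocitrate dehydrogenase IDH2 was the only call, 1.76-fold higher, and it lost the call without normoxia library 1 or 4, hypoxia library 2 or 8 or siSF3B1 library 9 (adjusted p up to 0.278). In this list 7 genes (19.4%) had an unadjusted p under 0.05, and 1 rose and 2 fell under the block. Of 53 genes of autophagy and lysosomes ATG9A was the only call, 1.33-fold higher, and it lost the call without normoxia library 1 or 4 or hypoxia library 2 or 8 (adjusted p up to 0.16). Here 7 genes (13.2%) had an unadjusted p under 0.05, and 2 rose and 3 fell under the block. By gene name, none of 59 RPL and 45 RPS genes, 34 KIF genes or 30 MED genes was called with limma or with voom on recovered reads. The numbers with an unadjusted p under 0.05 were 0 RPL, 2 RPS, 1 KIF and 4 MED genes. Under the block 1 MED gene fell and no RPL, RPS or KIF gene was called. Other name stems without a limma call were CDK, COX, DNAJC, METTL, KLHL, NUDT, STK and VPS, all but COX with calls under the block. Of 453 ZNF genes 10 were called (2.21%, against 5.65% of all tested genes), and under the block 16 rose and 13 fell.

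Some lists had a median away from 0 and few calls for single genes. The plot of list medians by library shows those with a median of at least 0.1 in size. Calls covered 3.45% of the ribosome biogenesis list and 3.28% of the mitosis list, against 5.65% of all tested genes. Genes of ribosome biogenesis and RNA polymerases I and III had a median log2 fold change of -0.15, and 4 of 58 had a positive one. Set against the normoxia mean, the median was -0.14 in hypoxia library 2, -0.10 in library 5 and -0.25 in library 8, which held the lowest of the 5 levels for 42 of the 58 genes (72.4%, against 25.3% of all tested genes). In this list POLR1E, of RNA polymerase I, fell by 0.41 and the processing factor RRP9 fell by 0.37, and 6 fell and 1 rose under the block. POLR1E lost the call without normoxia library 1 or 4, hypoxia library 2 or 8 or siSF3B1 library 9 (adjusted p up to 0.263) and RRP9 without normoxia library 1 or 4, hypoxia library 2 or 8 or siSF3B1 library 9 (adjusted p up to 0.284). Genes of mitosis and the spindle had a median of -0.22, with 5 of 61 positive. Under the block 1 rose and 4 fell. CDC25B, a phosphatase that activates CDK1, fell by 0.64 and ANLN, the actin-binding protein anillin, rose 1.59-fold. CDC25B lost the call without normoxia library 4 or hypoxia library 2 or 8 (adjusted p up to 0.172) and ANLN without normoxia library 1 or 4 or hypoxia library 2 or 5 (adjusted p up to 0.166). The mitosis median was -0.42 in hypoxia library 8 and -0.04 in library 5, and -0.12 over the fit without library 8. That library held the lowest of the 5 levels for 53 of 61 mitosis genes (86.9%), against 25.3% of all tested genes. Normoxia library 4 held the highest for 41 of the 61 (67.2%) and for 34 of the 58 ribosome biogenesis genes (58.6%). For DNA replication, normoxia library 4 was the highest in 38 of 53 genes (71.7%, against 26.9% of all tested genes). Hypoxia library 2 was the lowest in 33 of the 53 (62.3%, against 20.4% of all tested genes).

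The integrated stress response also differed between the hypoxia libraries. Of 29 tested ATF4 and stress response genes 2 rose, VLDLR (6.41-fold) and STC2 (4.25-fold). This share of 6.9% is near the 5.65% of all tested genes. Both genes are also known as HIF targets, and whether HIF acted on them here was not tested. The list's median log2 fold change was 0.38 and was 0.13 without library 8. Set against the normoxia mean, the median was 0.13 in library 2, 0.10 in library 5 and 0.79 in library 8, which held the highest level for 22 of the 29 genes (75.9%, against 23.7% of all tested genes). CHAC1, which breaks down glutathione, stood at 2.54 and 2.24 log2 CPM in normoxia and 3.72, 3.47 and 5.65 in hypoxia (limma adjusted p = 0.137). ASNS, asparagine synthetase, stood at 6.08 and 6.04 against 6.43, 6.10 and 7.39 log2 CPM (adjusted p = 0.382). Library 8 is far above libraries 2 and 5 for both genes, which were chosen after their values were seen. With a block for title numbers 10 members rose and 1 fell. The set of library 8 has no normoxia library among those analysed. Inflammatory and interferon genes were also mostly highest in library 8, in 41 of 55 (74.5%). Among them TNIP1, an inhibitor of NF-kB signalling, rose 2.06-fold, the interferon regulatory factor IRF2 1.46-fold and TNFAIP8 1.67-fold, and SOCS2 fell. TNIP1 lost the call without normoxia library 1 (adjusted p = 0.0559), IRF2 without normoxia library 1 (adjusted p = 0.11) and TNFAIP8 without normoxia library 1 or 4 or hypoxia library 2 or 8 (adjusted p up to 0.213). Under the block 6 rose and 4 fell. Without it 7.27% of the inflammatory list were called, near the 5.65% of all tested genes. Library 8 also held the highest level for 32 of 41 canonical HIF targets (78.0%) and 12 of 23 glycolysis genes (52.2%). The same held for 20 of 35 immediate early and Kruppel-like factors (57.1%), so the pattern was not particular to stress and inflammatory genes. What sets library 8 apart was not tested.

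**Figure D5:**
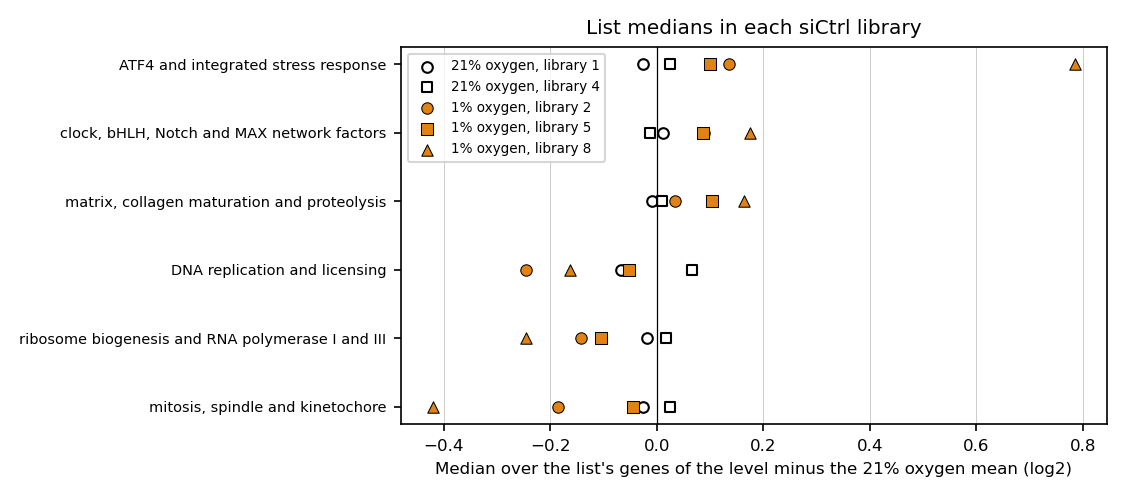
Median over each list's tested genes of the level minus the 21% oxygen mean (log2), 1 point per siCtrl library, for the 6 lists with a median log2 fold change of 0.1 to 1 in size. The triangle for hypoxia library 8 stands at 0.79 for the integrated stress response and at -0.42 for mitosis, away from libraries 2 and 5.

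Some genes called higher lay next to each other on the chromosome. Of 567 genes that rose and could be placed, 132 (23.3%) had an adjacent tested gene that also rose. Of all 13033 placed genes 8.28% had an adjacent gene that rose. Among 171 that fell, 12 (7.02%) had an adjacent gene that fell, against 2.58% of all placed genes. There were 65 such runs, 59 of higher and 6 of lower genes, and in 14 of them exons of adjacent genes overlap, so shared reads were possible. The 11 runs of 3 or more genes all held higher genes. The longest had 5 members on chromosome 22, CYTH4, ELFN2, MFNG, CARD10 and CDC42EP1, with log2 fold changes of 0.99, 1.14, 1.34, 0.56 and 0.65. Here MFNG, which adds sugars to Notch receptors, and CARD10, a scaffold of NF-kB signalling, were stable. CYTH4 lost the call without normoxia library 1 or 4 or hypoxia library 2, 5 or 8 (adjusted p up to 0.252), ELFN2 without normoxia library 4 (adjusted p = 0.0614) and CDC42EP1 without normoxia library 1 or 4 or hypoxia library 2 or 8 (adjusted p up to 0.256). On chromosome 15, IDH2, SEMA4B, CIB1 and GDPGP1 lay side by side, with 0.81, 0.72, 0.53 and 0.61. CIB1 and GDPGP1 overlap in exons, and GDPGP1 lost the call without normoxia library 1 or 4, hypoxia library 2, 5 or 8 or siSF3B1 library 9 (adjusted p up to 0.343). ITPR1, BHLHE40-AS1 and BHLHE40 formed a run on chromosome 3 with 2.09, 1.38 and 1.35, in which BHLHE40-AS1 lost the call without normoxia library 1 or 4 (adjusted p = 0.0694 and 0.0757). ABCB6, a porphyrin transporter, ATG9A and ANKZF1 formed one on chromosome 2 with 1.01, 0.41 and 1.67. These runs were chosen after their values were seen, and no test of clustering was made. Of genes named here and above, PLAU overlaps C10orf55 over 31.1% of its exons, and RNF24, THBS1, PGM1, NOL3, OSMR, KDM2B, LOXL2, SLC6A6, LOX, ANLN, ANKZF1, RAB40C, LRP1, SYDE1, BHLHE40, BHLHE40-AS1, PFKM, PFKFB2 and KRT8 overlap another gene over 8.6% or less, so their values are uncertain to that extent.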

How the data were processed

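Panc1 RNA was sequenced in 8 libraries, with a TruSeq Stranded kit per the labels' protocols. According to the submitters' processing notes, which give no roles, the tools were STAR 2.7.0a, featureCounts, edgeR 3.24.3, Subread 1.5.0, SAMtools 1.9 and Trimmomatic 0.35, and the build was GRCh38.p13. The authors deposited log2 CPM values, that is counts scaled to library size on a log2 scale. No source used here says whether counting was by strand. Values of genes that overlap another gene in exons are therefore uncertain, and overlaps are named in the text. The values stepped as whole reads do: 100.0% of values gave whole reads to within 0.01 read, and the prior count that these imply averaged 1.96 reads, which draws fold changes of low genes toward 0. Depth and the read numbers in the text come from this recovery.

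The deposited log2 values were used with no further pseudocount. Genes with a mean above 0 were tested with limma 3.58.1 in R 4.3.3: 1 mean per group over all 8 libraries, 5 residual degrees of freedom, an intensity trend, two-sided tests and Benjamini-Hochberg adjustment over the tested genes. Called means an adjusted p under 0.05, and adjusted p-values are of this test. The siSF3B1 libraries serve the spread and the filter on the mean, and do not enter the siCtrl group means. The code was tested on simulated data. Of 15176 gene IDs 15023 matched RefSeq.

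The numbers in the titles form 3 sets (1 to 3, 4 to 6, 7 to 9). Deviations from the group means correlated from 0.344 to 0.43 between libraries of different groups in the same set, and from -0.423 to 0.059 between sets. Deviations within a group sum to 0, which pulls values between sets down when those within sets are positive. The values between sets are therefore no separate evidence. The sets were taken as pairs in an alternative fit with a replicate block. Its counts are given beside those of the lists and gene kinds described. No pair of libraries in a group was alike within sampling noise (chi-square over its degrees of freedom of 8.39 to 20.6).

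The gene lists, the members and the rule for named genes were chosen with earlier results of these data known. The rule names up to 4 called members per list by p, the 25 highest and 25 lowest separated genes outside the canonical lists, and the 20 stable lower and 20 stable higher unlisted genes with the smallest p. Some that it takes have no result in the text.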

Additional observations from a re-analysis of the deposited data

How the results depend on the processing

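Of 263 genes followed one by one, 249 of them called, no called gene changed direction in any setting that tested it. Of the genes named above, ANLN, ATG9A, CDC25B, CDC42EP1, IDH2, JUN, MYC, PLAU, POLR1E, RRAGC, RRP9 and TNFAIP8 were not called without the intensity trend, IDH2 not with plain read totals, and ENO1 and PKM not with quantile normalization. The replicate block removed no call among those followed. The counts of higher and lower genes were less steady. They were 1048 and 597 with the replicate block of title numbers and 1628 and 1579 with that block on the 5 siCtrl libraries alone, which leaves 1 residual degree of freedom. Lower genes numbered 275 with plain read totals and 101 without the intensity trend. Leaving out 1 library gave from 257 to 660 higher genes and from 21 to 221 lower genes. The other settings moved neither count by more than 1.5 times: quantile normalization, no filter or a stricter filter on low values, the 5 siCtrl libraries alone, voom on recovered reads and a prior count of 0.5 read. The causes were not tested. With 2 normoxia libraries and 3 reads as floor (0.119 to 0.141 CPM in the siCtrl libraries), small changes of low genes were not detectable.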
